A study of Mus musculus with 6 samples.

Results

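The genes that build the motors and the transport system of cilia were followed from mouse embryonic stem cells (ESCs) to definitive endoderm. They were taken by name, as every gene of the expression tables called Dnah, Dnaic, Dnaaf, Rsph, Tekt, Ift or Bbs with a number and at most 1 letter after it. The rule used no expression value, but the members and the gene lists below were chosen with earlier results of these data known. It gave 49 of 24054 genes, of which 27 were motile genes (11 Dnah, 2 Dnaic, 3 Dnaaf, 6 Rsph and 5 Tekt) and 22 were transport genes (14 Ift and 8 Bbs). The 6 RNA-seq samples came from a single double knock-in (DKI) ESC line, heterozygous for Foxa2-Venus and homozygous for Sox17-Cherry, so that the starting ESCs and both differentiated populations carried the same fluorescent fusion genes. The d0 group was sorted on day 0 as cells negative for Venus and Cherry, the d3F group on day 3 as mesendoderm positive for Venus only, and the d5FS group on day 5 as definitive endoderm positive for both. Cells grew on gelatine, and differentiation was driven by 1 ng/ml Wnt3a and 10 ng/ml Activin A, which are signalling proteins that direct ESCs towards endoderm. ESCs were kept in a medium with fetal calf serum and LIF, and differentiation used another medium that lists neither. Each group had 2 replicates, which the study's methods call independent and the labels only number. The day and the sort gate changed together, between d0 and the other groups also the medium, and these cannot be told apart.

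Cilia are thin projections of the cell surface built on a core of microtubules called the axoneme. Motile cilia beat because axonemal dyneins slide neighbouring microtubules: Dnah genes encode their heavy chains, which hold the motor, Dnaic genes their intermediate chains, and Dnaaf genes the cytoplasmic factors that assemble the arms. Rsph genes encode subunits of the radial spokes, which regulate beating, and Tekt genes the tektins, filament proteins inside the microtubule doublets. Ift genes encode the trains of intraflagellar transport that carry cargo along the axoneme of motile and non-motile (primary) cilia, and Bbs genes the BBSome, a coat that ferries membrane proteins, with the chaperonins that assemble it. In the embryo, motile cilia at the node set up left-right asymmetry, whereas most other embryonic cells carry a primary cilium.

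Expected counts, which are the fragments that RSEM assigned to a gene, summed to 16457729 to 22768686 per sample. They were divided by library sizes scaled with TMM, a method that aligns the bulk of genes between samples, and are given as CPM, the count that a gene would have in a library of a fixed, common size. An expected count of 0 allowed up to 0.122 to 0.172 CPM in these samples, which covers counting error only. Replicates differed far beyond sampling noise, with a chi-square per degree of freedom of 185 for d0, 87.1 for d3F and 84.1 for d5FS. Rmrp and Rpph1, RNAs without a poly(A) tail, differed 3.04-fold, 2.08-fold and 1.22-fold in CPM between replicates 2 and 1 of d0, d3F and d5FS (1.24-fold, 1.18-fold and 0.746-fold as a share of TPM), and summed histone genes differed 1.82-fold, 1.29-fold and 2.13-fold. Markers followed the labels: from d0 to d5FS all 6 pluripotency markers fell and all 6 definitive endoderm markers rose, and from d0 to d3F all 5 mesendoderm markers rose. The definitive endoderm list holds Foxa2 and Sox17, whose reporters set the sort gates, so the rise of these genes was fixed by the sort. Node and notochord markers summed to 11.4 to 28.9 CPM in d0, 141 to 324 CPM in d3F and 27.9 to 45.6 CPM in d5FS, with 6 of 7 tested rising from d0 to d3F. Visceral endoderm markers summed to 31.5 to 80.5, 22.7 to 27.6 and 195 to 227 CPM in the same order, with 4 of 6 rising from d0 to d5FS. Of 7 feeder fibroblast markers, 4 of 6 tested rose from d0 to d5FS, among them the collagen genes Col1a1, Col1a2 and Col3a1, while Lum stayed at or below 0.0505 CPM in every sample and Dcn at or below 0.745 CPM. The part of these cell types in the cilium results was not tested. In sorted bulk samples, fewer ciliated cells and less RNA per cell cannot be told apart.

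The transport genes were expressed in all 3 populations, and most motile genes were low. Levels between genes were compared as TPM, RSEM's share of transcripts, which is corrected for length. All 22 transport genes reached 1 TPM in at least 1 sample, whereas 20 of 27 motile genes, including all 11 Dnah genes, stayed below 1 TPM in every sample. In both samples of a group, 14, 20 and 15 of 22 transport genes reached 1 TPM in d0, d3F and d5FS, against 1, 5 and 4 of 27 motile genes. Of the 14539 genes tested below, 8449, 9402 and 8854 did so, in the same order. Replicate 2 often had a lower TPM than replicate 1 at a similar CPM, which lowers counts that need both samples. Ift20 in d0 had 16.7 and 8.73 TPM at 15.1 and 17.2 CPM. At a threshold of 0.5 TPM, every transport gene but Bbs1 passed in both samples of each group. The motile gene above 1 TPM in every group was Dnaaf2. Dnaaf3 joined it in d3F alone, and Rsph3a, Rsph3b and Rsph9 in d3F and d5FS. The median gene had a mean expected count of 244 per sample among transport genes and 23 among motile genes, so that fold changes of motile genes rested on far fewer fragments.

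**Figure D1:**
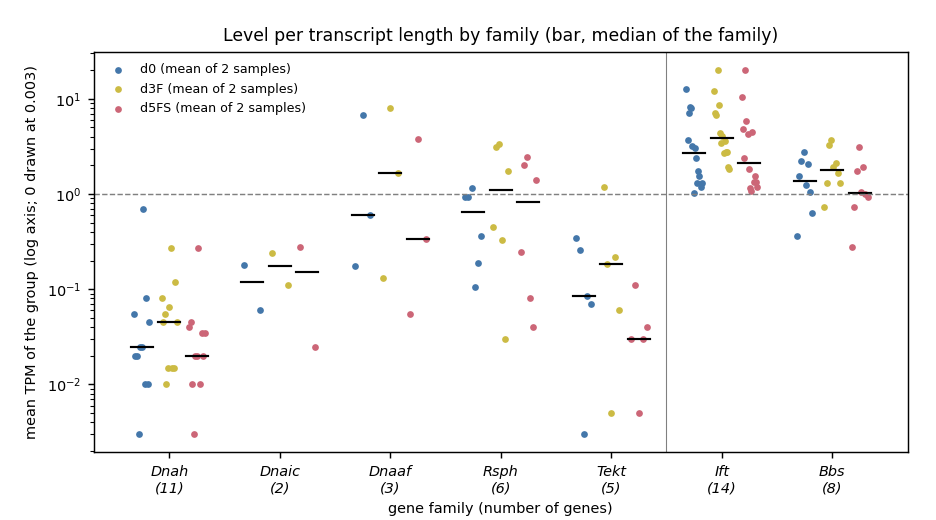
Mean TPM of each gene per group (y axis, logarithmic; points) by gene family (x axis), with the family median as a bar and a dashed line at 1 TPM. Ift and Bbs genes lie mostly above 1 TPM and Dnah genes below it in d0, d3F and d5FS.

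Within the transport genes the order of levels was held by a few genes. Ift43, a subunit of the IFT-A complex that brings cargo back to the cell body, had the highest mean TPM of all members at 16.1, followed by Ift20 at 11.7 and Ift46 at 7.48, both Ift20 and Ift46 chosen after their values were seen. In d0 the order of the first 2 was turned, with a mean of 8.29 TPM for Ift43 and 12.7 TPM for Ift20. The lowest transport gene was the BBSome subunit Bbs1 at 0.457 TPM. Among Bbs genes the BBSome subunit Bbs5 was highest, at 3.20 TPM. Dnaaf2, which helps to fold dynein arms before they enter the cilium, led the motile genes at 6.17 TPM, followed by Rsph3b at 2.32 and Rsph3a at 2.02 TPM.

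Summed over genes, the transport group gave 241 and 309 CPM in the d0 samples, 325 and 346 CPM in d3F, and 312 and 339 CPM in d5FS. All 4 differentiated samples lay above both d0 samples, d5FS replicate 1 by little over d0 replicate 2. The motile group gave 69.0 and 105 CPM in d0, 95.6 and 85.3 CPM in d3F, and 69.5 and 73.7 CPM in d5FS, with d3F above d5FS in both samples and d0 overlapping with each. Dnaaf2 alone held 37.5% of the motile sum and Ift46 17.3% of the transport sum. The Rsph family gave 9.65 and 13.1 CPM in d0, 23.3 and 26.1 CPM in d3F, and 18.2 and 30.3 CPM in d5FS. Its d0 samples lay below all others. The larger part of each sum came from Rsph3a and Rsph3b. Together this pair gave 6.80 and 6.87 CPM in d0, 17.4 and 21.5 CPM in d3F, and 14.6 and 24.9 CPM in d5FS. Rsph9 was also lowest in d0, while Rsph1 and Rsph6a were highest there and Rsph4a was highest in d3F. The Tekt family gave 1.32 and 3.54 CPM in d0, 4.55 and 2.63 CPM in d3F, and 0.624 and 0.860 CPM in d5FS, so that its d5FS samples lay below all others. No test was run on these sums.

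**Figure D2:**
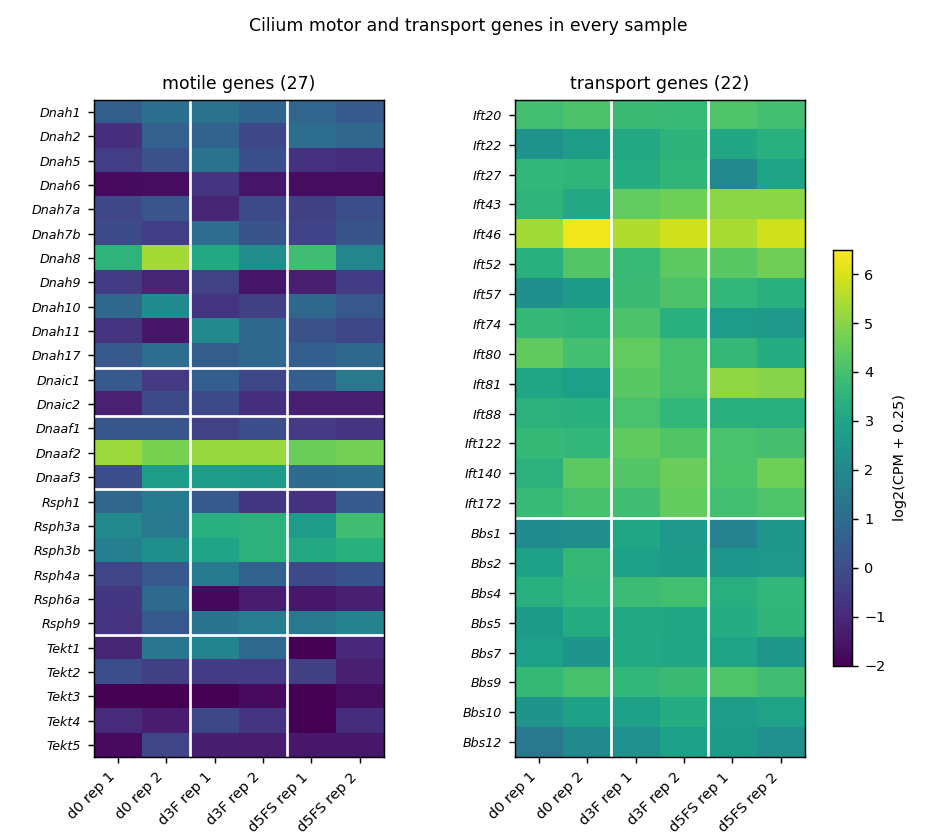
Expression as log2(CPM + 0.25) (colour) of the 27 motile genes (left) and the 22 transport genes (right) in each of the 6 samples (columns), with families separated by white lines. Transport genes are expressed throughout, while among motile genes Dnaaf2, Dnah8 and Rsph3a and Rsph3b stand out.

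Agreement between replicates split along the same line. No transport gene differed more than 2-fold between the replicates of any group, against 11, 7 and 7 of 27 motile genes in d0, d3F and d5FS. Over all genes tested, 20.9%, 11.3% and 15.6% differed that much. The 27 motile genes include 6 whose counts were too low to be among those tested. The median motile gene had a mean expected count of 23, against 244 for the median transport gene. The part of low counts in this split was not tested.

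Few members changed. A gene was called when its adjusted p was below 0.05 and its log2 fold change beyond 1 in either direction, in the quasi-likelihood test of edgeR on 14539 genes, with p-values adjusted by Benjamini-Hochberg. Of the 49 members 43 passed the filter on low counts, 21 motile and all 22 transport genes. Dnah6, Dnah9, Rsph6a, Tekt3, Tekt4 and Tekt5 did not pass it, with at most 32 expected counts in any sample.

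From d0 to d3F 1 of 43 members was called, the dynein heavy chain gene Dnah11, which rose. Over all genes 4.70% were called, 2.80% higher and 1.90% lower. From d3F to d5FS edgeR called no member, with 5 at an unadjusted p under 0.05 and a lowest adjusted p of 0.145, beside 1.54% of all genes, 1.08% higher and 0.461% lower. DESeq2's Wald test called 1 member there, Tekt1. From d0 to d5FS 4 of 43 members were called and all rose, the radial spoke genes Rsph3a and Rsph3b and the transport genes Ift43 and Ift81. Here 22.8% of all genes were called, 12.4% higher and 10.4% lower, beside 9.30% of the members. The comparisons share samples and are not independent. With the replicate number as a term in the fit, 5, 0 and 8 members were called in these comparisons, 2 of the last lower.

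The median member had a log2 fold change of 0.38 in d3F over d0, with 31 of 43 above 0. It was -0.26 in d5FS over d3F, with 15 of 43 above 0, and 0.02 in d5FS over d0, with 22 of 43 above 0. Among transport genes these medians were 0.41, -0.21 and 0.18, and among motile genes 0.35, -0.39 and -0.28. Over all genes they were -0.01, 0.01 and 0.02. In both d3F samples 9 of 43 members were higher than in all 4 other samples, beside 5.85% of all genes tested. They were Dnah7b, Dnah11 and Rsph4a among motile genes and Bbs1, Bbs4, Bbs7, Ift57, Ift88 and Ift122 among transport genes. RSEM divided fragments between Dnah7a and Dnah7b, and the order of Dnah7b depends on that split. The sum of Dnah7a and Dnah7b was 1.99 and 1.57 CPM in d3F, but 1.66 CPM in d5FS replicate 2. Both d0 samples were highest for 5 members, beside 18.4% of all genes, and both d5FS samples for 4 members, beside 19.6%. The d0 count fell to 2 when CPM were taken over plain sums of expected counts.

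**Figure D3:**
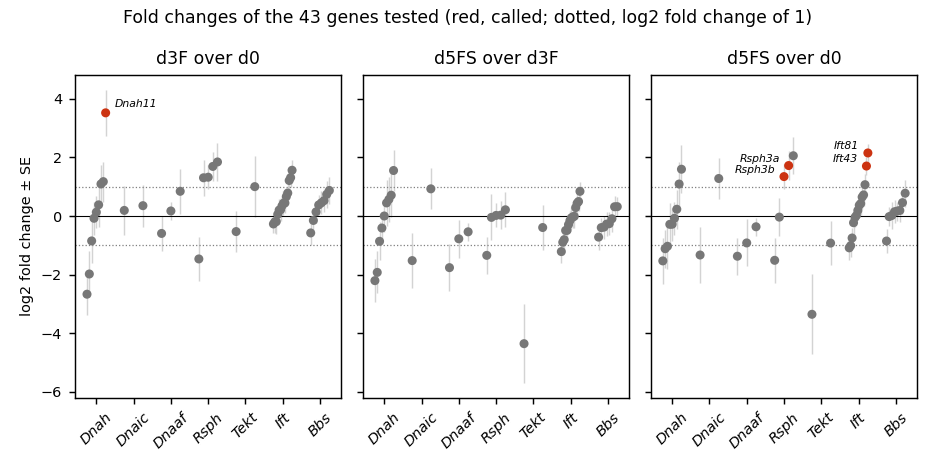
Log2 fold change with its SE (y axis) of the 43 members tested, by family (x axis), in the 3 comparisons, with called genes in red and dotted lines at 1 and -1. Dnah11 is called in d3F over d0, and Rsph3a, Rsph3b, Ift43 and Ift81 in d5FS over d0.

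Dnah11, an outer arm heavy chain needed for beating of node cilia, had 0.360 and 0.105 CPM in d0, 3.87 and 1.56 CPM in d3F, and 0.817 and 0.648 CPM in d5FS. The d3F samples were both above all others, and both d0 samples were lowest. It rose from d0 to d3F by a log2 fold change of 3.52 (SE 0.79, adjusted p = 0.0455 in edgeR), and had a log2 fold change of -1.92 from d3F to d5FS (SE 0.72, adjusted p = 0.211). These values rest on 8.22 and 2.05 expected counts in d0 and 95.4 and 30.8 in d3F. The call held without d0 replicate 1, but was lost without d0 replicate 2 (adjusted p = 0.155), d3F replicate 1 (0.247), d3F replicate 2 (0.113), d5FS replicate 1 (0.0839) or d5FS replicate 2 (0.0857), and in a fit of only d0 and d3F (0.0694). Dnah11 lies on chromosome 12 (mm10 positions 117877982 to 118199043, minus strand), and 1 of its exons overlaps an exon of Cdca7l on the other strand by 642 bases in GENCODE M21. Its expected counts were not whole numbers in any sample, while those of Dnah11 and Cdca7l summed to whole numbers within 0.02 in all 6 samples. RSEM therefore divided fragments between these genes. Cdca7l had 39.2 and 39.1 CPM in d0, 58.7 and 47.8 CPM in d3F, and 28.6 and 26.6 CPM in d5FS, and was not called in any comparison.

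The other heavy chains were low. Dnah8, the highest of them per length, had 11.2 and 41.1 CPM in d0, 8.93 and 4.32 CPM in d3F, and 14.7 and 3.38 CPM in d5FS, so that both d0 samples were above both d3F samples while d5FS overlapped with either group. Its log2 fold change was -1.98 in d3F over d0 (SE 0.80, adjusted p = 0.204 in edgeR) and -1.53 in d5FS over d0 (SE 0.79, adjusted p = 0.188). DESeq2's Wald test (adjusted p = 0.0344) and edgeR without a filter on low counts (0.000244) called the first, which was -0.74 without d0 replicate 2. An exon overlaps one of 1700097N02Rik on the other strand by 207 bases, a gene with 7.51 and 43.2 CPM in d0 and at most 1.62 CPM in any other sample. In d0 the expected counts of the 2 genes, 256 and 171 in replicate 1 and 802 and 844 in replicate 2, were not whole numbers but summed to whole numbers. Of the 11 heavy chain genes 8 did not exceed 2.11 CPM in any sample. Dnah10, chosen after its values were seen, had 1.54 and 4.05 CPM in d0 against 0.365 and 0.505 CPM in d3F, a log2 fold change of -2.67 (SE 0.70, adjusted p = 0.0674). Dnah7a and Dnah7b share 1496 windows of 100 bases, 12.3% and 12.2% of their transcripts, so their split is uncertain.

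The intermediate chain genes had about 1 CPM or less in most samples. Dnaic1, an outer arm subunit, had 1.05 and 0.410 CPM in d0, 1.22 and 0.657 CPM in d3F, and 1.19 and 2.41 CPM in d5FS, and Dnaic2, also of the outer arm, between 0.170 and 0.718 CPM. Neither passed the test, with log2 fold changes in d5FS over d0 of 1.28 (SE 0.71, adjusted p = 0.219) and -1.33 (SE 0.96, adjusted p = 0.34) in edgeR.

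Of the assembly factors, Dnaaf2 was present throughout, with 37.0 and 27.4 CPM in d0, 36.1 and 36.5 CPM in d3F, and 23.9 and 26.1 CPM in d5FS. The d5FS samples were lowest, but the log2 fold change from d0 of -0.37 (SE 0.30, adjusted p = 0.402 in edgeR) did not pass the test. Dnaaf1 had 0.970 and 0.965 CPM in d0 and 0.413 and 0.363 CPM in d5FS, with d3F at 0.535 and 0.759 CPM between them, and a log2 fold change from d0 to d5FS of -1.37 (SE 0.63, adjusted p = 0.147). An exon overlaps one of Taf1c on the other strand by 584 bases, with which it shared fragments in the same way as Dnah11 with Cdca7l, and Taf1c fell by 1.19 on the log2 scale between d0 and d5FS (SE 0.31, adjusted p = 0.0294 in edgeR). Dnaaf3, chosen after its values were seen, had 0.789 and 6.05 CPM in d0, 6.46 and 5.76 CPM in d3F, and 1.70 and 1.89 CPM in d5FS, and edgeR called it in no comparison. Without a filter on low counts, edgeR called Dnaaf3 lower from d3F to d5FS.

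The radial spoke genes held both motile calls of d5FS over d0. Rsph3a and Rsph3b are closely related copies on chromosome 17 (mm10 positions 7945614 to 7979824, plus strand, and 6904413 to 6948682, minus strand) that encode a stalk subunit which also anchors a kinase. They share 60.6% and 64.8% of their 100-base transcript windows, and RSEM divided fragments between them in every sample. Rsph3a had 3.84 and 2.46 CPM in d0, 9.84 and 10.6 CPM in d3F, and 6.22 and 14.7 CPM in d5FS, and Rsph3b 2.95 and 4.41 CPM, 7.58 and 10.8 CPM, and 8.41 and 10.3 CPM. For each copy the d0 samples were below all others. From d0 to d5FS Rsph3a rose by a log2 fold change of 1.72 (SE 0.50, adjusted p = 0.0409 in edgeR) and Rsph3b by 1.35 (SE 0.42, adjusted p = 0.05 after rounding, below the threshold before it). The sum of the pair, which does not depend on the split, was 6.80 and 6.87 CPM in d0, 17.4 and 21.5 CPM in d3F, and 14.6 and 24.9 CPM in d5FS.

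These calls were close to the threshold. That of Rsph3a was lost without d0 replicate 2 (adjusted p = 0.135), d3F replicate 1 (0.0656), d3F replicate 2 (0.0644) or d5FS replicate 2 (0.228), and that of Rsph3b without any 1 of the 6 libraries (d0 replicate 1 0.149, d0 replicate 2 0.062, d3F replicate 1 0.0796, d3F replicate 2 0.081, d5FS replicate 1 0.127, d5FS replicate 2 0.162). Rsph9, a subunit of the spoke head, missed it narrowly, with 0.351 and 1.03 CPM in d0, 2.15 and 2.78 CPM in d3F, 2.44 and 3.27 CPM in d5FS, and a log2 fold change from d0 to d5FS of 2.06 (SE 0.64, adjusted p = 0.0501 in edgeR). Without d0 replicate 2 it was called (adjusted p = 0.0352). From d3F to d5FS the log2 fold changes of the 3 genes were 0.03 for Rsph3a, 0.02 for Rsph3b and 0.21 for Rsph9, each smaller than its SE.

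Tekt1, the highest tektin gene, had 0.219 and 2.26 CPM in d0, 3.29 and 1.62 CPM in d3F, and 0 and 0.229 CPM in d5FS. The d5FS values rest on 0 and 4 expected counts, against 81 and 32 in d3F. Its log2 fold changes were -4.36 from d3F to d5FS (SE 1.35, adjusted p = 0.145) and -3.35 from d0 to d5FS (SE 1.36, adjusted p = 0.106) in edgeR. The first was called in a fit of only d3F and d5FS (adjusted p = 0.0494), and the second without d0 replicate 1 (adjusted p = 0.0266).

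**Figure D4:**
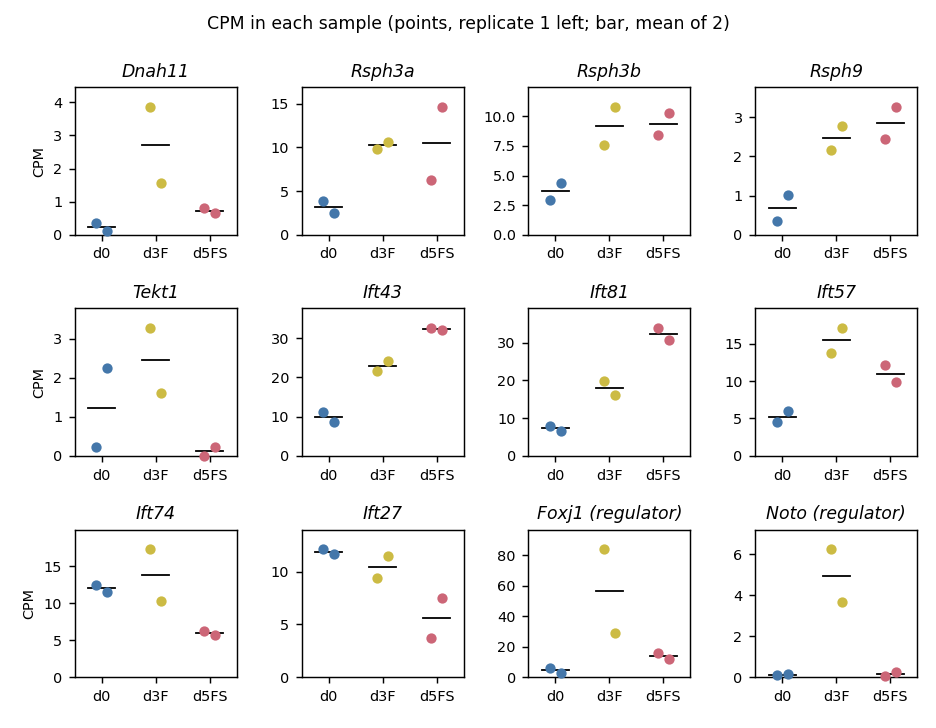
CPM (y axis, from 0) in each sample of d0, d3F and d5FS (points, replicate 1 left) with the mean of 2 (bar) for the called members, 5 members near the threshold and the regulators Foxj1 and Noto. Ift43 and Ift81 rise in steps from d0 over d3F to d5FS, while Dnah11, Tekt1, Foxj1 and Noto are highest on average in d3F.

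Ift81 and Ift43 had the lowest adjusted p of all members. Ift81, an IFT-B subunit whose tubulin-binding module carries axoneme building blocks, had 7.81 and 6.71 CPM in d0, 19.9 and 16.2 CPM in d3F, and 33.9 and 30.7 CPM in d5FS. The 3 groups did not overlap, and the order was d0, d3F, d5FS. It rose from d0 to d5FS by a log2 fold change of 2.15 (SE 0.32, adjusted p = 0.00441 in edgeR), with 1.31 from d0 to d3F (SE 0.31, adjusted p = 0.0538) and 0.84 from d3F to d5FS (SE 0.31, adjusted p = 0.203). Ift43 had 11.3 and 8.51 CPM in d0, 21.6 and 24.3 CPM in d3F, and 32.6 and 31.9 CPM in d5FS, in the same order and again without overlap. In d5FS over d0 its log2 fold change was 1.70 (SE 0.32, adjusted p = 0.00909), with 1.21 from d0 to d3F (SE 0.31, adjusted p = 0.0648). Both calls held without each of the 6 libraries in turn, with log2 fold changes of 2.06 to 2.25 for Ift81 and 1.53 to 1.91 for Ift43. Tested against a log2 fold change of 1 with DESeq2 they did not pass, with adjusted p = 0.0541 and 0.566. Ift81 lies on chromosome 5 (mm10 positions 122550204 to 122614518, minus strand) and Ift43 on chromosome 12 (86082541 to 86162459, plus strand), with no exon shared with another annotated gene.

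Partners of these genes in the same complexes had mixed patterns: Hspb11 rose in the same order, while Ift74, Ift27 and Ift57 did not. Ift74, which binds tubulin together with Ift81, had 12.5 and 11.5 CPM in d0, 17.3 and 10.3 CPM in d3F, and 6.18 and 5.73 CPM in d5FS, with a log2 fold change from d0 to d5FS of -1.01 (SE 0.38, adjusted p = 0.0886 in edgeR). Ift27, a small GTPase of IFT-B that pairs with Hspb11 (IFT25), had 12.1 and 11.6 CPM in d0, 9.38 and 11.5 CPM in d3F, and 3.74 and 7.45 CPM in d5FS, with a log2 fold change from d0 to d5FS of -1.09 (SE 0.42, adjusted p = 0.0961). Its partner Hspb11 had 3.82 and 3.49 CPM in d0, 7.63 and 8.08 CPM in d3F, and 13.5 and 11.3 CPM in d5FS, and rose from d0 to d5FS by a log2 fold change of 1.76 (SE 0.37, adjusted p = 0.0135), a call lost without d5FS replicate 1 (0.0807). Ift57, a peripheral IFT-B subunit, had 4.52 and 5.95 CPM in d0, 13.8 and 17.1 CPM in d3F, and 12.1 and 9.86 CPM in d5FS. Both d3F samples were above all others, with a log2 fold change from d0 of 1.56 (SE 0.37, adjusted p = 0.0509). Ift74, Ift27 and Ift57 were chosen after their values were seen.

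Among the 6 subunits of IFT-A, which returns cargo to the cell body, Ift43 rose and 2 fell from d0 to d5FS. Wdr35 (IFT121) had 103 and 78.4 CPM in d0, 45.9 and 52.8 CPM in d3F, and 35.9 and 40.2 CPM in d5FS, and fell by 1.25 on the log2 scale (SE 0.29, adjusted p = 0.019 in edgeR). Ttc21b (IFT139) had 24.1 and 17.6 CPM in d0, 27.7 and 15.6 CPM in d3F, and 7.15 and 4.01 CPM in d5FS, and fell by 1.90 (SE 0.44, adjusted p = 0.0194). The call of Wdr35 was lost without d0 replicate 1 (adjusted p = 0.0643), d5FS replicate 1 (0.107) or d5FS replicate 2 (0.0685), and that of Ttc21b without d5FS replicate 2 (0.0972). The remaining subunits Ift122, Ift140 and Wdr19 had log2 fold changes of 0.37 (SE 0.31), 0.42 (SE 0.40) and 0.52 (SE 0.33), none called. Of the 17 IFT-B genes listed, which include Ttc30a1 and Ttc30b but not Ttc30a2, 2 rose, Ift81 and Hspb11, and 1 fell, Traf3ip1 (IFT54). Traf3ip1 had 21.1 and 12.7 CPM in d0 and 4.48 and 5.56 CPM in d5FS. It fell by 1.75 on the log2 scale (SE 0.49, adjusted p = 0.0358 in edgeR). That call was lost without d0 replicate 1 (0.104), d5FS replicate 1 (0.174) or d5FS replicate 2 (0.106). The median log2 fold change in d5FS over d0 was 0.40 over IFT-A and -0.05 over IFT-B, beside 0.02 over all genes. Called genes made up 50.0% of the 6 IFT-A genes and 17.6% of the 17 IFT-B genes listed, beside 22.8% of all genes.

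**Figure D5:**
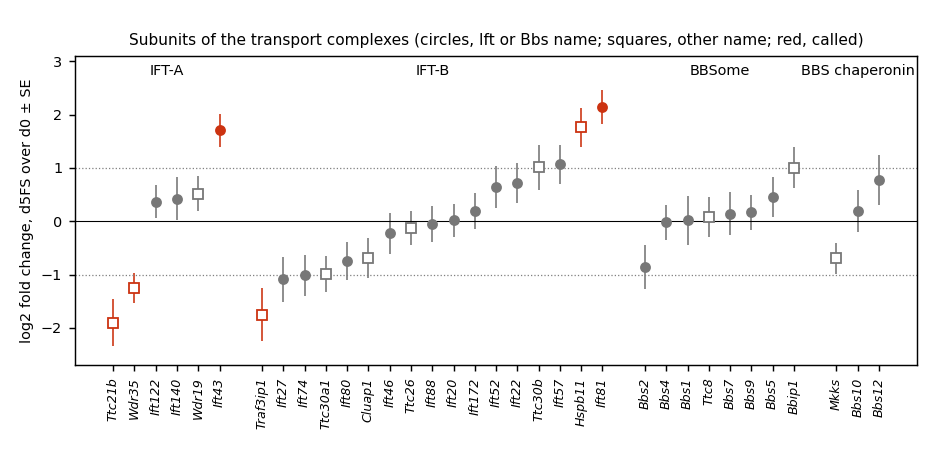
Log2 fold change from d0 to d5FS with its SE (y axis) for each subunit of IFT-A, IFT-B, the BBSome and its chaperonins (x axis), with circles for genes named Ift or Bbs, squares for subunits with other names and red for called genes. IFT-A and IFT-B hold called subunits on both sides of 0, and the BBSome and its chaperonins hold none.

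No Bbs gene was called. Their sum was 53.9 and 69.8 CPM in d0, 70.4 and 72.5 CPM in d3F, and 64.7 and 66.5 CPM in d5FS, and edgeR called none of the 8 in any comparison. Their log2 fold changes from d0 to d5FS ran from -0.85 for Bbs2 to 0.78. Bbs2, a BBSome subunit, had 7.11 and 12.3 CPM in d0, 7.02 and 5.96 CPM in d3F, and 5.22 and 5.50 CPM in d5FS (log2 fold change -0.85, SE 0.42, adjusted p = 0.167). Bbs5, which binds membrane lipids, had 5.92 and 9.23 CPM in d0, 8.44 and 8.24 CPM in d3F, and 9.30 and 11.5 CPM in d5FS (log2 fold change 0.46, SE 0.38, adjusted p = 0.416). The 8 subunits of the BBSome, which include Ttc8 and Bbip1, had a median log2 fold change of 0.11 from d0 to d5FS. Arl6 (BBS3), the GTPase that recruits the BBSome to membranes, is not one of them and fell by 1.49 on the log2 scale (SE 0.37, adjusted p = 0.0238 in edgeR), from 19.1 and 21.0 CPM in d0 to 8.28 and 5.96 CPM in d5FS. That call was lost without d0 replicate 2 (0.0665), d5FS replicate 1 (0.0716) or d5FS replicate 2 (0.111).

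RFX factors, which switch on genes of primary and motile cilia, bind a sequence called the X-box, and promoters of the members were searched for its half-sites GTTGCCA and GTTACCA on both strands. RefSeq promoters on GRCm38.p6, from 250 bases before to 50 after the start site, were at hand for 43 of the 49 members. A half-site was present in 8 of 43 (18.6%), beside 7.72% of 27025 genes. The share was 4 of 24 motile and 4 of 19 transport genes. The windows below show the half-sites that lay within 60 bases before a start site, in capitals, read in the direction of transcription. A half-site on the other strand appears as its reverse complement. They start 15, 10, 9 and 54 bases before the start sites of Tekt1 (chr11:72361883-72361912, minus strand), Dnaaf2 (chr12:69198430-69198459, minus strand), Ift27 (chr15:78174082-78174111, minus strand) and Ift57 (chr16:49699228-49699257, plus strand).
Tekt1: cgttgcgtccgtccgGTTGCCAtagagacc
Dnaaf2: cctcctcccaggcgttactaTGGCAACaaa
Ift27: ggagaaggcgggttgatgatgGTTGCCAgg
Ift57: cctgcggttgccTGGTAACggtggggactg
These 4 genes had different patterns: Ift57 was highest in d3F and lowest in d0, Ift27, Tekt1 and Dnaaf2 had their lowest sample in d5FS, and none passed the test. The promoter table held 4 of the 5 called members, without Ift81, and none of the 4 had a half-site in its window. The core forkhead motif TGTTTAC, which FOXJ1 and other forkhead factors recognise, was found in 2 of 43 members (4.65%), Tekt3 and Dnah17, beside 4.05% of genes. These matches describe letters in the windows and are not binding sites.

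Among the 14 ciliary regulators listed, Foxj1 and Noto, which act in the node, were called higher in d3F over d0. Rfx3, which also acts there, was not called. Foxj1, the master regulator of motile cilia, had 5.97 and 2.72 CPM in d0, 84.04 and 28.5 CPM in d3F, and 15.9 and 11.9 CPM in d5FS, and rose from d0 to d3F by a log2 fold change of 3.69 (SE 0.61, adjusted p = 0.0173 in edgeR). Noto, a homeobox gene that acts upstream of Foxj1 in the node, had 0.0877 and 0.154 CPM in d0, 6.25 and 3.64 CPM in d3F, and 0.0567 and 0.229 CPM in d5FS, and rose by 5.31 (adjusted p = 0.0137) before it fell by 5.06 on the log2 scale to d5FS (adjusted p = 0.0259). The rise of Foxj1 was lost without d0 replicate 2 (adjusted p = 0.0601) and that of Noto without d3F replicate 1 (0.0503). The fall of Noto was lost without d3F replicate 1 (0.199), d3F replicate 2 (0.0526), d5FS replicate 1 (0.164) or d5FS replicate 2 (0.103).

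The RFX genes had different patterns. Rfx3, which acts in node and primary cilia, had 12.6 and 4.97 CPM in d0, 42.3 and 26.4 CPM in d3F, and 33.0 and 15.8 CPM in d5FS, with a log2 fold change of 1.96 from d0 to d3F (SE 0.55, adjusted p = 0.0801). Rfx2 fell from d0 to d5FS by 1.84 on the log2 scale (adjusted p = 0.0438), lost without d0 replicate 2 (0.165), d5FS replicate 1 (0.174) or d5FS replicate 2 (0.151). Rfx6, known from gut and pancreas rather than from cilia, rose by 3.75 (adjusted p = 0.0218), from 3.11 and 0.205 CPM to 19.2 and 26.0 CPM, lost without d5FS replicate 1 (0.0729) or d5FS replicate 2 (0.0806). Rfx1, Rfx5 and Rfx7 were not called, and Rfx4 had at most 0.439 CPM.

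Of 5 tested markers of multiciliated cells, which carry many motile cilia, Foxj1 rose in d3F as given above, Ccno fell, and Gmnc, Tubb4b and Tppp3 were not called. Ccno had 5.70 and 9.43 CPM in d0, 9.14 and 5.51 CPM in d3F, and 0.113 and 0.229 CPM in d5FS, and fell, with a log2 fold change of -5.42 in d5FS over d0 (adjusted p = 0.00263) and -5.37 in d5FS over d3F (adjusted p = 0.015). The first call held without each library, and the second was lost without d3F replicate 1 (0.109), d5FS replicate 1 (0.114) or d5FS replicate 2 (0.0759). Myb fell from d0 to d5FS by 2.76 (adjusted p = 0.0231) and Trp73 by 3.32 (adjusted p = 0.029), lost for Myb without d5FS replicate 1 (0.115) and for Trp73 without d0 replicate 1 (0.0935), d5FS replicate 1 (0.15) or d5FS replicate 2 (0.118). Gmnc had at most 1.46 CPM, and Mcidas had at most 0.202 CPM and was not tested. Over all 14 regulators, of which 12 were tested, 2 were called in d3F over d0, 2 in d5FS over d3F and 5 in d5FS over d0, that is 16.7%, 16.7% and 41.7% beside 4.70%, 1.54% and 22.8% of all genes. This list was made with earlier results of these data known.

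Motile cilium genes outside the 5 families, a list of 46 of which 44 were found and 37 tested, had 3 genes called from d0 to d3F, all higher (8.11%, beside 4.70% of all genes called and 2.80% higher). They were Enkur, a microtubule inner protein (log2 fold change 5.34, adjusted p = 0.0178), Zmynd10, a dynein assembly factor (3.30, adjusted p = 0.027), and Ttc25, an outer arm docking factor (3.12, adjusted p = 0.0308). Enkur had 0.0439 and 0.0513 CPM in d0, 3.13 and 1.16 CPM in d3F, and 0.794 and 0.917 CPM in d5FS. The call of Enkur was lost without d0 replicate 2 (0.0699) or d3F replicate 1 (0.0916), that of Ttc25 without d3F replicate 1 (0.086), d3F replicate 2 (0.138), d5FS replicate 1 (0.0564) or d5FS replicate 2 (0.0589), and that of Zmynd10 without any 1 of the 6 libraries (0.0568 to 0.132).

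Of the same list 6 genes rose and 4 fell from d0 to d5FS, all 10 with a mean of at most 0.678 TPM. They made up 27.0% of the genes tested, beside 22.8% of all genes. Enkur (4.01, adjusted p = 0.0187) and the assembly factor genes Lrrc6 (3.71, adjusted p = 0.0478) and Zmynd10 (2.65, adjusted p = 0.0211) were among those that rose. Ccdc151 (-3.31, adjusted p = 0.0188), Spag6 (-3.17, adjusted p = 0.0291) and Wdr16 (-3.08, adjusted p = 0.0445), which encode an arm docking factor, a central pair protein and a microtubule inner protein, were among those that fell. These calls were lost without d0 replicate 2 or either d5FS replicate for Ccdc151 (0.0569 to 0.113), without these or d3F replicate 1 for Spag6 (0.054 to 0.156), without any library but d0 replicate 1 for Wdr16 (0.0603 to 0.208), without either d0 or either d5FS replicate for Enkur (0.065 to 0.073), without any library but d3F replicate 2 for Zmynd10 (0.0545 to 0.0877), and without any library for Lrrc6 (0.0568 to 0.225). In d5FS over d3F edgeR called none, with 9 at an unadjusted p under 0.05.

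Of 28 transport genes tested outside the Ift and Bbs names, 6 were called from d0 to d5FS (21.4%, beside 22.8% of all genes). Beside Hspb11, Arl6, Ttc21b, Wdr35 and Traf3ip1 given above, the kinesin gene Kif17 rose by a log2 fold change of 2.68 (SE 0.76, adjusted p = 0.038 in edgeR), from 0.0877 and 0.256 CPM in d0 to 0.908 and 1.32 CPM in d5FS, a call that was lost without any 1 of the 6 libraries (adjusted p of 0.0664 to 0.162). None was called from d0 to d3F (3 at an unadjusted p under 0.05) or from d3F to d5FS (6). The heterotrimeric kinesin genes Kif3a, Kif3b and Kifap3 and the retrograde motor genes Dync2h1 and Dync2li1 were not called, with log2 fold changes of 0.01 to 0.74 and of 0.29 and -0.16 from d0 to d5FS. Of 20 genes of the transition zone, the gate at the base of the cilium, Tctn1 alone was called (5.0%, beside 22.8% of all genes in d5FS over d0), with a rise from d0 to d5FS from 7.03 and 6.396 CPM to 15.2 and 19.8 CPM (log2 fold change 1.38, adjusted p = 0.0234), lost without d0 replicate 2 (0.0766), d3F replicate 1 (0.0508), d5FS replicate 1 (0.065) or d5FS replicate 2 (0.103).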

How the data were processed

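RNA from 6 sorted samples (3 groups of 2) was depleted of ribosomal RNA and sequenced as 100 bp paired-end reads. The authors aligned reads to mm10 with STAR and used RSEM with RefSeq transcripts. The versions are not given in the sources used here. The deposited tables give, per gene, expected counts (fragments estimated by RSEM, not normalised), which were rounded to whole numbers for the tests. They also give TPM values, which the authors obtained with RSEM per effective length and scaled to a fixed total per sample, and FPKM values, which the authors obtained with RSEM per kilobase of effective length and were not used here. Lengths in the deposited tables were not used either.

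Groups came from the labels. The 3 pairwise comparisons were fitted with edgeR 4.0.16 in R 4.3.3 (TMM, filterByExpr, quasi-likelihood F test, all 6 samples, 3 residual degrees of freedom, Benjamini-Hochberg adjustment), after a check on simulated counts. In that check, from d0 to d5FS, edgeR recovered 57% of simulated log2 fold changes of 2 and 95% of those of 4. False calls made up 5% of edgeR's calls and 16.9% of those of DESeq2's Wald test. Each SE was taken as the absolute log2 fold change over the root of its F statistic. The methods call the replicates biological and independent, and the labels number them. With 2 samples a group an exact permutation test cannot go below p = 0.33, so none was used. RSEM divides fragments that fit several genes, so copies and overlapping genes can exchange counts.

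The members and gene lists were chosen with earlier results of these data known. Members were named with the value in every sample when called in any comparison, and in each family when highest in mean TPM or largest in absolute log2 fold change from d0 to d5FS. The thresholds for a call have the values given in the study's methods, which set them in the results function of DESeq2. Here the fold change was applied after edgeR's test against no change. DESeq2's test against a log2 fold change of 1 called 0 members in each comparison. From each list at most 6 called genes per comparison were named by fold change, and all regulators. Alternatives were DESeq2 1.42.0 (its size factors, and its Wald test with and without a threshold on the fold change), other filters, adjusted p alone, the replicate number as a block, fits of 2 groups, and leaving out each library. Exon overlaps came from GENCODE M21 on mm10, and promoters from RefSeq on GRCm38.p6. Protein sequences were not analysed here. Figures were drawn with matplotlib 3.10.9.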

Additional observations from a re-analysis of the deposited data

How the results depend on the processing

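Counts of called members depended on the processing, while none of the log2 fold changes recomputed for named genes changed sign. From d0 to d3F, where edgeR called 1, DESeq2's Wald test called 7 and its test against a log2 fold change of 1 called 0. There 9 were called without a filter on low counts, 0 with at least 10 counts in every sample, 0 in a fit of only the 2 groups and 0 to 2 with each library left out. From d3F to d5FS, where edgeR called 0, DESeq2's Wald test and the fit of 2 groups each called 1 and the fit without a filter 2. In d5FS over d0, where edgeR called 4, DESeq2's test against a log2 fold change of 1 called 0, the fit without a filter 7, the fit of 2 groups 2, and the fits with each library left out 2 to 6. Scaling by DESeq2's size factors called 1, 0 and 3. With the replicate number as a term (replicate block) 5, 0 and 8 members were called in these comparisons, with Ift43, Ift57, Ift81 and Rsph3b added in the first, and Ift57 and Rsph9 (higher) and Ift27 and Ift74 (lower) in the last. The correlation of same-numbered deviations over 14539 genes was 0.314 between d0 and d3F and 0.324 between d0 and d5FS, and 0.278 between both differentiated groups. All of these correlations were positive, so same-numbered samples shared part of their deviations. Replicate 2 also had more genes with a count than replicate 1 in each group. The numbers were 18649 against 16977 in d0, 18354 against 16840 in d3F and 19859 against 16773 in d5FS. No source says what a number marks, so what these samples shared was not tested, and the block was kept as an alternative.

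In d0, 4 motile genes reached 0.5 TPM in both samples, and 2 reached 1 TPM after rescaling by TMM. The motile sums of 87.0 (d0), 90.4 (d3F) and 71.6 CPM (d5FS) became 54.8, 54.1 and 46.6 CPM without Dnaaf2. Without Rsph3a, Rsph3b, Dnah7a and Dnah7b they were 78.8, 69.2 and 50.4 CPM, with d0 and not d3F highest. Without Dnah8, a choice made after seeing the data, they were 60.8, 83.8 and 62.6 CPM, with d0 lowest. The transport means became 215, 284 and 275 CPM without Ift46, 213, 264 and 260 CPM for Ift alone, and 61.8, 71.4 and 65.6 CPM for Bbs alone. The median motile gene had a mean of 23 expected counts, which limits the precision of its fold change.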
